A study of Mus musculus with 6 samples.

Results

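The genes described here encode the AP-1 transcription factors: the Fos family genes Fos, Fosb, Fosl1 and Fosl2, the Jun family genes Jun, Junb and Jund, and the related genes Atf3 and Batf. They were chosen by symbol, and each had exactly 1 row with its symbol alone, so the 9 genes are 9 of the 19935 genes with a row of that kind. Transcripts were measured on 6 microarrays, each with total RNA of 1 culture of primary keratinocytes (the main cell of the epidermis) from wild type CD1 mice, kept in keratinocyte medium low in calcium. In 3 cultures, called caNFATc1, a retrovirus delivered human NFATc1 whose autoinhibitory domain was mutated so that the protein is constitutively active. In the other 3, called vector control, the virus was made from the empty MSCV vector, so both groups carry a retroviral infection. The cultures are bulk samples, and neither the share of infected cells nor the time after infection is given in the sources used here.

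AP-1 proteins bind DNA as pairs held together by a leucine zipper, a coiled helix that follows a basic DNA-contacting region (together, the bZIP domain). Fos proteins need a Jun protein as partner, while Jun proteins can also pair among themselves. NFAT proteins often bind next to AP-1 on composite sites, a partnership best known from cytokine genes of T cells. In epidermis, AP-1 is known for its part in wound responses, differentiation and skin tumour growth. Several members are immediate-early genes, whose RNA rises within minutes of a stimulus.

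Fosl1 was lower and Fosl2 and Atf3 were higher in caNFATc1 cultures when arrays of the same replicate number were paired. Fosl1 fell 2.05-fold, Fosl2 rose 1.67-fold and Atf3 rose 1.39-fold. The other 6 genes, all 3 Jun genes among them, did not pass the test. All values are log2 and relative to the median of that gene's row over the 6 arrays, because the deposited table is centred that way. They show how arrays differ but not how strongly a gene is expressed, so no levels are compared between genes. Differences are caNFATc1 minus vector control, from a limma fit over all genes with the replicate number as a block (a term for each number). SE is limma's moderated standard error, and a gene was called at a Benjamini-Hochberg adjusted p under 0.05. In this fit 6.11% of all genes were called, 3.73% higher and 2.38% lower. Of the 9 AP-1 genes 2 were called higher and 1 lower, and with so few genes this count is a description. Without the block 0.216% of all genes and 0 of the 9 were called by limma, with 2 of the 9 (Fosb and Fosl2) at an unadjusted p under 0.05 against 12.7% of all genes. With the block 6 of the 9 had an unadjusted p under 0.05, against 21.5% of all genes. Every call of an AP-1 gene therefore rests on the pairing.

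Both replicate number and group moved these arrays. After each group's mean was taken away, what remained on the vector control and caNFATc1 arrays of replicates 1, 2 and 3 correlated over genes at 0.71, 0.61 and 0.57. Replicate 1 stood apart, in that its deviations correlated at between -0.60 and -0.44 with those of the other numbers in the other group, against 0.04 and 0.18 between replicates 2 and 3. Because a gene's deviations cancel out within a group, positive values at equal numbers make the others negative on balance. Rcan1, a known NFAT target, differed by 3.61, 3.12 and 3.40 in pairs 1, 2 and 3. The row of mouse Nfatc1 differed by 0.12, 0.10 and -0.10, and whether it detects the human transgene was not tested. The replicates are called biological, but nothing says that equal numbers share a culture or donor. The p-values with the block rest only on the spread of the differences within these pairs, moderated over genes. Those without it rest on the spread between these arrays of a group. An exact sign-flip test of 3 pairs cannot go below p = 0.25, so single genes have no smaller exact p in that paired test.

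The promoters of the called genes are shown because the results turn on these genes. The sequences are RefSeq's for the GRCm38.p6 assembly, 250 bases that end just before the start of transcription. Of the 9 genes 8 had an entry, and Fosl1 had none. The capitals mark matches to any of 4 short motifs searched on both strands. They are TGANTCA (a loose form of the AP-1 site, with any base at N), TGACGT (the core of the cyclic AMP response element), GGAAA (the core bound by NFAT) and TATAAA (the TATA box). None of the 4 contains another. The Fosl2 promoter is at chr5:32136222-32136471 on the + strand, and that of Atf3 is at chr1:191183334-191183583 on the - strand, printed as transcribed.
Fosl2: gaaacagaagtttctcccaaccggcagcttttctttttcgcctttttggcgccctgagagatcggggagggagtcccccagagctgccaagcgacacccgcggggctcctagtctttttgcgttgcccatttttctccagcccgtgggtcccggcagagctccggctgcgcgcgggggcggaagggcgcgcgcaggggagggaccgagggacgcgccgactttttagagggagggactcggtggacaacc
Atf3: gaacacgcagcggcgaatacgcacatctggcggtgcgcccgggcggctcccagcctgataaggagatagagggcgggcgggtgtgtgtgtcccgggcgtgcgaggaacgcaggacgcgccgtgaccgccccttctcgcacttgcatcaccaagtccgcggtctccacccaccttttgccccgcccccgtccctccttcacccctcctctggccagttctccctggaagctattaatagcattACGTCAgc
The Fosl2 window held no match to any of the 4 motifs. The Atf3 window held 1, the TGACGT core on the opposite strand, which starts 8 bases before the start. The same core was found in Fos and Batf, at 66 and 98 bases before the start, and so in 3 of the 8 windows, against 6.47% of all 32851 promoters of this length. TGANTCA was in 0 of the 8 windows and in 6.75% of all promoters. GGAAA was in Jun and Batf, and in 55.6% of all promoters. TATAAA was in Fos alone among the 8, 33 bases before its start, and in 12.4% of all promoters. A match describes letters only.

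**Figure D1:**
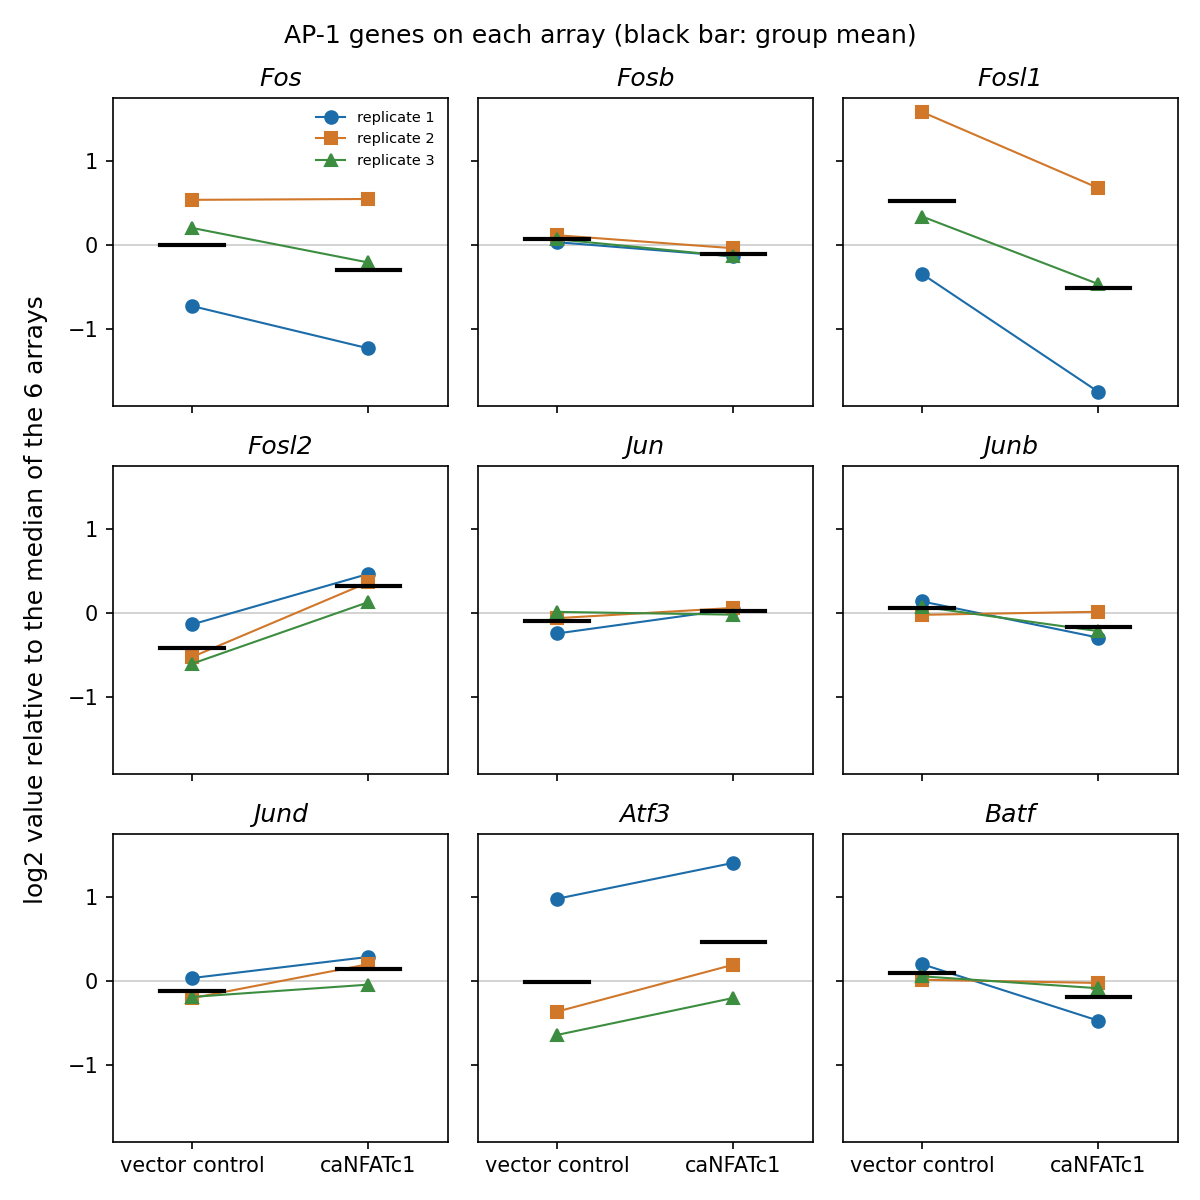
Each panel plots 1 AP-1 gene on the 6 arrays, as log2 value relative to the median of the gene's row, with vector control on the left and caNFATc1 on the right. Lines join arrays of the same replicate number and black bars are group means (n = 3). Fosl1, Fos and Atf3 spread widely between replicate numbers in both groups, while the Fosl1 lines all fall and the Fosl2 and Atf3 lines all rise.

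Among the Fos family, Fosl1 showed the lowest difference. Fosl1 encodes FRA-1, a Fos protein without the strong activation domain of Fos, known for its high level in migrating and invasive epithelial cells. The vector control arrays of replicates 1, 2 and 3 stood at -0.34, 1.58 and 0.34, and the caNFATc1 arrays at -1.74, 0.68 and -0.46. Replicate 1 was lowest and replicate 2 highest in both groups, and the groups overlapped. Within pairs 1, 2 and 3, Fosl1 differed by -1.40, -0.90 and -0.80 log2 units. The difference was -1.04 ± 0.13 (SE with the block, n = 3 pairs, limma adjusted p = 0.0158), and 0.146% of all genes had a lower one. Without the block the SE was 0.73, or 5.83 times as large, and the limma adjusted p was 0.653. With the block, the call held without replicate 1, 2 or 3 of both groups, the differences then lying between -1.15 and -0.85, with adjusted p-values from limma between 0.00418 and 0.0232.

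Fosl2 went the other way. It encodes FRA-2, the Fos protein closest in kind to FRA-1, which also lacks the Fos activation domain and is known in epidermis for regulating differentiation genes. The vector control arrays stood at -0.13, -0.52 and -0.60, and the caNFATc1 arrays at 0.47, 0.37 and 0.13. Every caNFATc1 array was above every vector control array. Fosl2 was higher by 0.60, 0.89 and 0.73 in pairs 1, 2 and 3, a difference of 0.74 ± 0.08 (SE with the block, n = 3 pairs, limma adjusted p = 0.0116). A higher difference was found for 1.75% of all genes. The spread between replicate numbers was smaller than for Fosl1, and without the block the SE was 0.15 and the adjusted p from limma 0.126. With the block and a whole pair left out in turn, the difference lay between 0.67 and 0.81, with limma adjusted p-values between 0.0109 and 0.0293.

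Fos and Fosb encode the Fos proteins with strong activation domains, and neither passed. Fos stood at -0.72, 0.54 and 0.21 in vector control and at -1.23, 0.55 and -0.21 in caNFATc1 arrays, lowest in replicate 1 and highest in replicate 2 in both groups, as for Fosl1. It was lower in pairs 1 and 3, by 0.50 and 0.41, and differed by 0.01 in pair 2 (overall -0.30 ± 0.11, SE with the block, limma adjusted p = 0.198). Fosb stood at 0.04, 0.12 and 0.07 against -0.13, -0.04 and -0.13, so the groups did not overlap although the difference was small. Its pairs differed by -0.17, -0.15 and -0.20 (overall -0.18 ± 0.06, SE with the block, limma adjusted p = 0.180). The Fosb value was nearly the same in every pair, with an SD of 0.03 over the 3 pairs.

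The Jun genes encode the partners of Fos proteins, and none of them was called. Jund, whose product is known for steady expression in resting cells, stood at 0.04, -0.20 and -0.19 in vector control and at 0.29, 0.20 and -0.04 in caNFATc1 arrays. It was higher in all 3 pairs, by 0.25, 0.40 and 0.15, but the groups overlapped and the difference of 0.27 ± 0.08 (SE with the block) had a limma adjusted p of 0.110. Jun, the founding member and a strong activator, stood at -0.24, -0.06 and 0.02 against 0.05, 0.06 and -0.02. Its pairs differed by 0.29, 0.12 and -0.03, with an overall difference of 0.13 ± 0.08 (SE with the block, limma adjusted p = 0.475). Junb, a weaker activator that can hold back Jun, stood at 0.14, -0.02 and 0.08 against -0.29, 0.02 and -0.21. The pairs differed by -0.43, 0.04 and -0.29, and the overall difference was -0.23 ± 0.10 (SE with the block, limma adjusted p = 0.280). The 95% intervals were -0.08 to 0.33 for Jun, -0.48 to 0.03 for Junb and 0.08 to 0.46 for Jund.

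Atf3, a stress-induced bZIP factor that pairs with Jun proteins, rose by a small and even amount. The vector control arrays stood at 0.98, -0.36 and -0.64 and the caNFATc1 arrays at 1.41, 0.20 and -0.20. Replicate 1 was the highest in both groups, opposite to Fosl1 and Fos, and the groups overlapped. Atf3 was higher by 0.43, 0.56 and 0.44 in pairs 1, 2 and 3, with an SD of 0.07 over the pairs. The difference was 0.47 ± 0.07 (SE with the block, n = 3 pairs, limma adjusted p = 0.0219), and 3.70% of all genes had a higher one. Without the block the SE was 0.57, or 8.54 times as large, and the limma adjusted p was 0.820. The call was also lost with the block without replicate 2 of both groups (0.43, limma adjusted p = 0.0837) and after quantile normalization of the arrays (0.35, limma adjusted p = 0.276). That normalization was applied to the row-centred values, so it evened out the arrays' deviations and not their expression levels. Over all its alternatives the adjusted p of Atf3 ran from 0.0218 to 0.999.

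Batf encodes a short bZIP protein without an activation domain, best known as the partner of Jun proteins in lymphocytes. It stood at 0.20, 0.02 and 0.06 in vector control and at -0.47, -0.02 and -0.08 in caNFATc1 arrays. The groups did not overlap, but pair 1 carried most of the difference, with -0.67 against -0.04 and -0.14 in pairs 2 and 3 (overall -0.28 ± 0.13, SE with the block, limma adjusted p = 0.296). Batf and Fos lie on chromosome 12 with 1 protein-coding gene between them in the RefSeq annotation, Jdp2, which encodes a further bZIP partner of Jun. Jdp2 differed by -0.52, -0.02 and 0.00 in the pairs (overall -0.18 ± 0.12, SE with the block, limma adjusted p = 0.479).

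**Figure D2:**
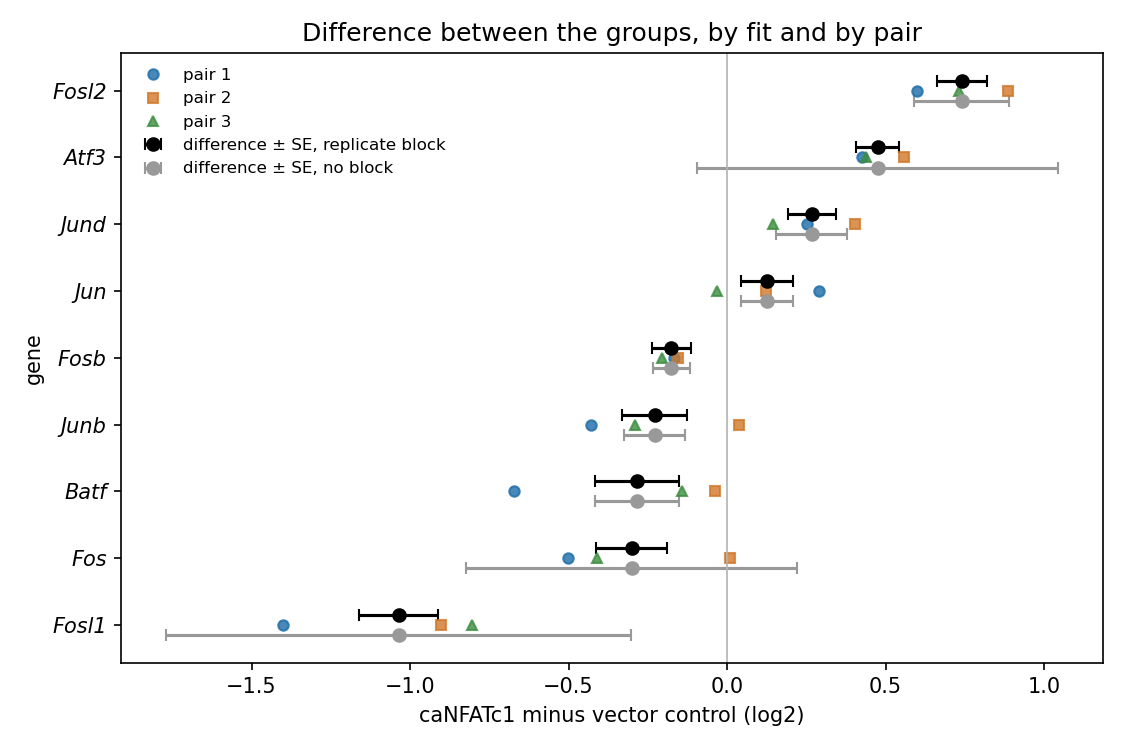
The difference between caNFATc1 and vector control (log2, horizontal axis) is plotted for each AP-1 gene, with black points and bars for the difference ± SE with the replicate block, grey ones for the fit without it, and coloured symbols for the 3 pairs. The grey bars of Atf3, Fosl1 and Fos are 8.54, 5.83 and 4.66 times as long as the black ones, while those of Fosb, Jun, Junb and Batf are about equal.

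Ordered by difference, the genes ran from Fosl1 through Fos, Batf, Junb, Fosb, Jun, Jund and Atf3 to Fosl2. The 95% interval of Fosl1, from -1.35 to -0.72, did not reach that of its neighbour Fos, from -0.58 to -0.02. Every other gene had an interval that overlapped the next one's, and differences between members were not tested. The median over the 9 genes was -0.18, against -0.01 over all genes. Of the 9, 6 moved the same way in all 3 pairs, against 42.9% of all genes. These were 3 up (Fosl2, Jund and Atf3, against 21.6% of all genes) and 3 down (Fosb, Fosl1 and Batf, against 21.3%). The groups did not overlap for 3 of the 9, against 18.7% of all genes, with 1 higher (Fosl2, against 9.64%) and 2 lower (Fosb and Batf, against 9.09%). The genes also differed in how far replicates of a group lay apart. Over the 3 vector control arrays Fosl1, Atf3 and Fos spanned 1.93, 1.62 and 1.26 log2 units, while the other 6 spanned between 0.08 and 0.47.

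**Figure D3:**
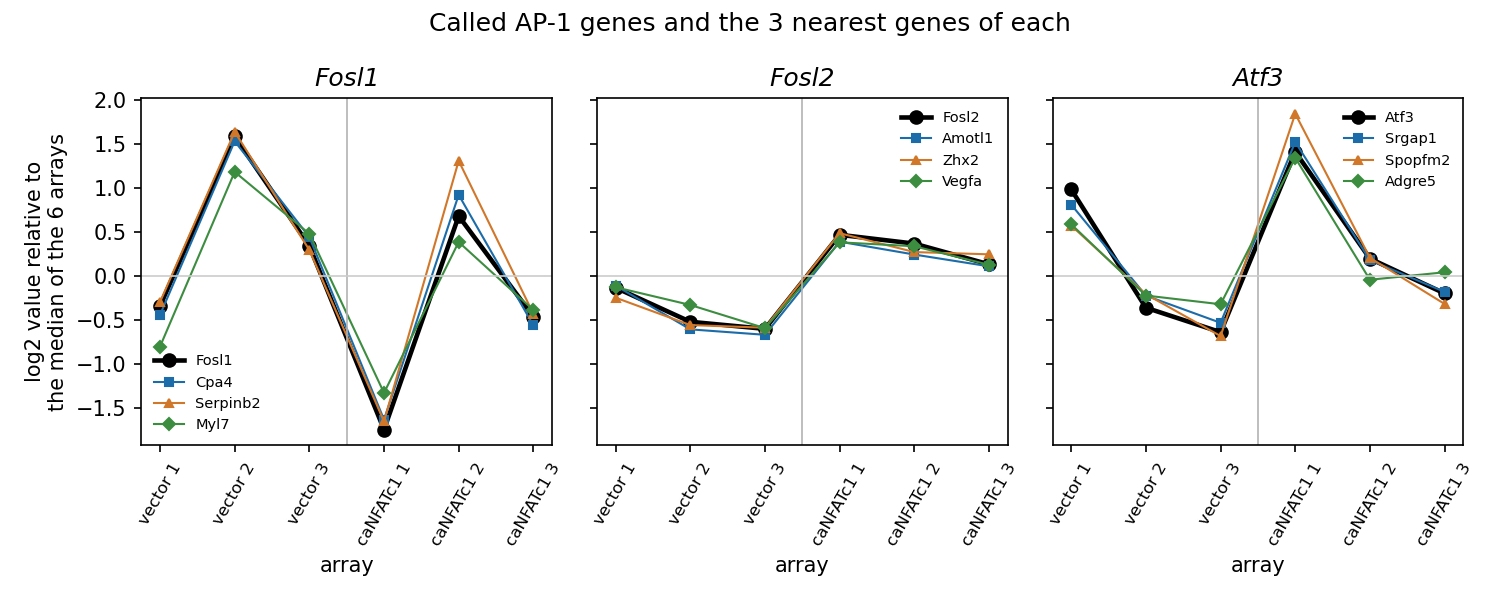
The log2 value relative to the row median is plotted over the 6 arrays (vector control left of the vertical line, caNFATc1 right) for the called AP-1 genes in black and, in colour, the 3 genes nearest to each. The Fosl1 and Atf3 patterns follow replicate number and group, while that of Fosl2 mostly steps between the groups. Fosl1 and Atf3 are opposite in group and in replicate 1, but replicate 2 lies above replicate 3 for both.

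Genes with the most similar pattern were found by the root mean square difference of the 6 array values, among 18602 genes with ordinary symbols, as a description. Nearest to Fosl1 was Cpa4, a carboxypeptidase gene, at 0.13 log2 units. Next were the serpin gene Serpinb2 and the myosin light chain gene Myl7, at 0.26 and 0.33. Nearest to Fosl2 were Amotl1, an angiomotin family gene, Zhx2, a homeobox gene, and Vegfa, the vascular growth factor gene, at 0.08, 0.08 and 0.09. Nearest to Atf3 was Srgap1, a GTPase-activating protein gene, at 0.11, followed by Spopfm2 and the adhesion receptor gene Adgre5 at 0.26 each.

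The lists of genes around AP-1 were read by their counts and medians, with the share of all genes called (6.11%) as the background. At an unadjusted limma p under 0.05 the shares of all genes were 21.5% with the block and 12.7% without it. In the list counts, rose and fell mean called higher and called lower. Of 38 measured other bZIP factors 3 rose and 1 fell, with a median of 0.03. Crem, a cyclic AMP responsive factor, rose by 0.91 ± 0.11 (SE with the block, limma adjusted p = 0.0156), by 1.15, 0.63 and 0.93 in the pairs. Creb3 and Atf6, both made as membrane-bound precursors, rose by 0.54 ± 0.07 and 0.43 ± 0.06 (0.0203 and 0.0264). Cebpb, a bZIP factor of keratinocyte differentiation, fell by 0.43 ± 0.07 (0.0310). Without the block limma called 0 of the 38, with 8 at an unadjusted p under 0.05 against 12.7% of all genes. With the block but without replicate 1, 2 or 3 of both groups it called 2, 1 and 2. Batf2 and Batf3, the nearest relatives of Batf, differed by -0.10 and 0.06 and were not called.

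The inputs to AP-1 showed no calls. MAP kinases phosphorylate and induce AP-1 proteins. Of 26 measured genes of that cascade limma called 0 with or without the block, with 14 positive, 12 negative and a median of 0.07. At an unadjusted limma p under 0.05 there were 11 with the block and 3 without it, against 21.5% and 12.7% of all genes. Lowest in p were the kinase genes Mapkapk2, which differed by 0.47 ± 0.11, and Map2k6, which differed by -0.31 ± 0.08 (limma adjusted p = 0.0725 and 0.0839, SE with the block). SRF and its cofactors switch on Fos after growth stimuli, and of 7 measured limma called 0 with or without the block, with 0 at an unadjusted p under 0.05 in either and a median of 0.09. Myocd and Elk4 differed by 0.21 and 0.12 (limma adjusted p = 0.278 and 0.372). Of 6 genes that set the turnover or activity of Jun and Fos proteins 0 were called by limma in either fit, with 1 at an unadjusted p under 0.05 in each and a median of 0.08. The ubiquitin ligase gene Itch, whose product targets Jun proteins, differed by 0.30 ± 0.07 and Usp28 by 0.11 ± 0.07 (limma adjusted p = 0.0624 and 0.470, SE with the block).

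Among 36 immediate-early genes outside the family 5 were called higher and 0 lower, or 13.9% called against 6.11% of all genes. The median was -0.02, with 16 genes positive and 20 negative. With the block 17 had an unadjusted limma p under 0.05, against 21.5% of all genes. Sgk1, a kinase gene of stress and hormone responses, rose by 1.36 ± 0.08 (SE with the block, limma adjusted p = 0.00382) and was also called without the block (limma adjusted p = 0.0210). Ccn2 and Ccn1, matrix-associated growth regulators, rose by 1.53 ± 0.17 and 1.01 ± 0.20 (0.0136 and 0.0464), and the pseudokinase gene Trib1 by 0.82 ± 0.11 (0.0179). The last of the 5, named after its value was seen, was the MAP kinase phosphatase gene Dusp1, which rose by 0.38 ± 0.08 (0.0469). Without replicate 3 of both groups the count was 8, and after quantile normalization it was 3. Egr1, the early gene most often measured beside Fos, differed by 0.67, 0.00 and 0.49 in the pairs and was not called (overall 0.39). Also not called were Nr4a1, at 1.35, and Ier5, the lowest of the list, at -0.41 (limma adjusted p = 0.0594 and 0.153, with the block).

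Among 44 measured genes known as AP-1 targets in keratinocytes and skin tumours, 3 rose and 8 fell, or 25.0% called, with a median of -0.04. This list, like the other lists here, was written with earlier results of these data known, so none of their shares is independent evidence. The hyaluronan receptor gene Cd44, the integrin gene Itga5 and Vegfa rose by 1.54 ± 0.12, 1.58 ± 0.17 and 0.63 ± 0.07 (SE with the block, limma adjusted p = 0.00604, 0.0117 and 0.0138). The cornified envelope genes Sprr1a and Tgm1 fell by 0.70 ± 0.08 and 0.64 ± 0.10 (0.0132 and 0.0264), the wound keratin gene Krt6b by 0.87 ± 0.11 (0.0170) and the metalloproteinase inhibitor gene Timp1 by 0.43 ± 0.07 (0.0278). The other 4 that fell, named after their values were seen, were Ivl (involucrin), the urokinase gene Plau, Sprr1b and Hmga2, by 1.24, 0.53, 1.09 and 0.61. The matrix metalloproteinase genes Mmp1a, Mmp1b, Mmp3, Mmp9, Mmp10 and Mmp13 differed by 0.06, 0.09, -0.03, -0.05, -0.002 and -0.01. Mmp14 was higher in all 3 pairs, by 0.12, 0.59 and 0.43, a difference of 0.38 (limma adjusted p = 0.0978). The cyclin gene Ccnd1 differed by -0.41, and none of these genes was called. Without the block limma called 0 of the 44, with 7 at an unadjusted p under 0.05 against 12.7% of all genes.

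Cytokine genes with composite sites for NFAT and AP-1 were measured as 11 genes, of which Tnf rose and 0 fell, with a median of 0.02. Tnf stood at -0.47, -0.49 and -0.24 in vector control and at 0.90, 0.24 and 1.06 in caNFATc1 arrays. It rose by 1.37, 0.73 and 1.30 in the pairs (overall 1.13 ± 0.13, SE with the block, limma adjusted p = 0.0154, and 0.118 without the block). The other 10, which include the T cell cytokine genes Il2, Il4 and Ifng, differed by between -0.06 and 0.10.

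**Figure D4:**
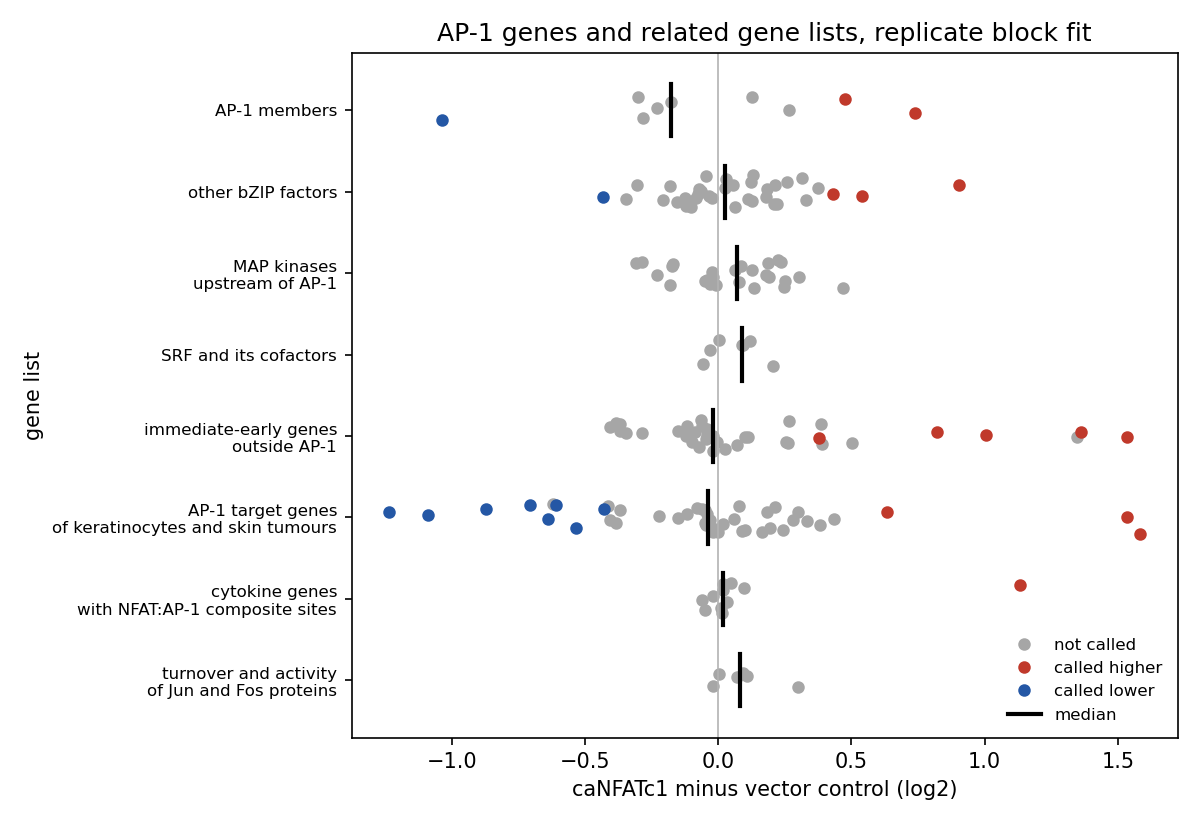
Each point is a gene, placed by its difference between caNFATc1 and vector control (log2, horizontal axis) in the fit with the replicate block, for the AP-1 genes and the 7 related lists. Red and blue mark genes called higher and lower, grey those not called, and black bars are medians. The medians lie between -0.18 and 0.09, and called genes lie on both sides of 0 in 3 of the 8 groups of genes.

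Markers of cell types were examined as differences, since centred values give no level against which to check the labelled cell type. Of 10 keratinocyte markers 1 was called higher and 0 lower, with 4 positive, 6 negative and a median of -0.03. The called one, the basal regulator gene Trp63, differed by 0.42 ± 0.08 (SE with the block, limma adjusted p = 0.0444, and 0.322 without the block). Krt15 and Epcam were lower in all 3 pairs, with differences of -0.58 and -0.26, and were not called (limma adjusted p = 0.132 for each, with the block). Of 8 fibroblast markers Col3a1 was called higher, by 1.20 ± 0.19 (limma adjusted p = 0.0296, and 0.108 without the block). None was called lower, with 6 positive and 2 negative. The mean of the 8 lay between -0.13 and -0.01 on the vector control arrays and was 0.09, 0.11 and 0.63 on the caNFATc1 arrays of replicates 1, 2 and 3. Replicate 3 carried most of the caNFATc1 mean, which was 0.28 with it and 0.10 without it, a setting added after the data were seen. Their part in the AP-1 differences was not tested, and in bulk cultures fewer cells of a kind cannot be told apart from less RNA per cell. Limma called 0 of 7 melanocyte, 8 immune and 5 endothelial markers with or without the block, with 0 at an unadjusted p under 0.05.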

How the data were processed

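Total RNA of 6 cultures was hybridised as biotin-labelled cDNA to 1-colour arrays, per the labels' protocols. The authors deposited 1 table of 28815 rows of log2 values. They were made with RMA, which summarises and normalizes probes on a log2 scale, and with build mm8, per the submitters' processing notes. Neither software versions nor row filters were given in those notes. The median of every row was 0 within 5e-07, so rows had been centred, and the base 2 was taken from RMA. The planned filter on dim rows could not be run, since centred values hold no brightness. Arrays limit the precision by their number, 3 per group.

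Rows were named by the platform annotation. There were 21780 rows with 1 symbol, 1605 with several and 5430 not listed. The rows of a gene were averaged, giving 19935 genes. Each AP-1 gene had 1 row. Groups were compared with limma 3.58.1 in R 4.3.3 (lmFit and eBayes, 2-sided, Benjamini-Hochberg over all genes), with the replicate number in the titles as a block. That pairing is part of how the comparison was defined. It was checked by the correlation of deviations, with a limit of 0.1 for every pair. All 3 passed, and the 6 other pairings, which are tied to these as given above, lay between -0.60 and 0.18. The highest of those is also above the limit, so passing it does not by itself single out equal numbers. The fit was also run on simulated data that had the replicate block built in and independent normal noise. That run could not test the pairing or how these arrays vary.

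The members and lists were chosen with earlier results of these data known. The lists hold 176 genes, of which 162 were measured and the rest are not reported here, and 6 are in more than 1 list. Named were all members, up to 4 called genes per list and direction (2 where none was called), and the 3 genes nearest to each called member, leaving out predicted genes and clone names. Other genes were named after their values were seen. Alternatives were no block, left-out replicates and arrays, 2 scalings, 2 ways of joining rows and robust moderation.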

Additional observations from a re-analysis of the deposited data

How the results depend on the processing

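Fosl1 and Fosl2 stayed called, in the same direction, in all alternatives that kept the replicate block: 3 with a whole pair left out, 2 scalings, 2 ways of joining rows and robust moderation. Atf3 lost its call in 2 of these 8, as given above. The 2 ways of joining rows could not change an AP-1 difference, because each of these genes had a single row. Robust moderation leaves every difference as it is and alters only the SE. Calls kept in those settings therefore add little. With no replicate block limma called 0 AP-1 genes, 43 genes over all (1219 with it), 0 other bZIP factors, 1 immediate-early gene, 0 AP-1 targets and 0 cytokine genes. The single keratinocyte and fibroblast marker calls were lost as well, while the other lists stayed at 0. Over the settings that leave out a whole pair (with the block) or 1 array (group as the only term, which breaks a pair), limma called 0 to 3 AP-1 genes, 0 to 1086 over all genes, 0 to 2 other bZIP factors, 0 to 8 immediate-early genes, 0 to 12 AP-1 targets and 0 to 1 cytokine genes. In the setting with 0 calls over all genes, without vector control replicate 3, 2113 genes passed an unadjusted p of 0.05 in limma. Leaving out vector control replicate 1, 2 or 3 gave 6, 2 and 0 over all genes, and leaving out caNFATc1 replicate 1, 2 or 3 gave 19, 83 and 2. With the block and without replicate 1, 2 or 3 of both groups the count over all genes was 711, 743 and 1086. Fos, which was never called, ran from -0.72 to 0.165 over the left-out settings and was positive only without caNFATc1 replicate 1, in the fit without the block. The differences of the other 8 genes kept their sign in every setting, but Atf3 ran from 0.0051 to 0.97 over the left-out settings. Its lowest value, near 0, came without caNFATc1 replicate 1, in the fit without the block. A gene that moved the same way in all 3 pairs could not change sign when a whole pair was left out. Quantile normalization reduced the immediate-early count from 5 to 3. The cause of these changes was not tested. Without the block the share of calls that were higher was 95.3%, against 61.0% with it. No setting moved the median over all genes beyond -0.02 to 0.02. Log2 values with no level behind them cannot show whether a gene lies near background.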

Other observations

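The ratio of Fosl2 to Fosl1 within each array was looked at after both values had been seen, so it is given as a description with no test. Because each gene is centred on its own median, the ratio shows unequal change and not which transcript was more abundant. On the vector control arrays Fosl2 minus Fosl1 was 0.21, -2.10 and -0.94 log2 units, and on the caNFATc1 arrays it was 2.21, -0.31 and 0.59. The shift within pairs was 2.00, 1.79 and 1.54, or 1.78 ± 0.23 (SD, n = 3 pairs). The arrays of replicate 1 had the highest ratio and those of replicate 2 the lowest in both groups.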
